A study of Drosophila melanogaster with 5 samples.

Results

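The regions around eya, dac and hth, 3 genes of the network that decides which cells of the eye-antennal disc become retina, held 115 of the 24341 peaks in 3 chromatin immunoprecipitation (ChIP-seq) lists from Drosophila melanogaster eye discs. The members were 56 of 11679 Yorkie (Yki) peaks, 15 of 2557 Scalloped (Sd) peaks and 44 of 10105 RNA polymerase II (Pol II) peaks. They were taken by position alone. A peak belonged if it shared at least 1 bp with the 80 kb on 2L from 6500001 to 6580000 (eya), the 60 kb on 2L from 16440001 to 16500000 (dac) or the 180 kb on 3R from 6300001 to 6480000 (hth), all on genome build dm3. The eya window held 32 peaks, the dac window 15 and the hth window 68.

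Eya (Eyes absent) is a protein phosphatase and transcriptional coactivator that works with the homeodomain protein Sine oculis. Dac (Dachshund) is a nuclear protein of the Ski/Sno family that acts beside Eya and is needed for normal eye and leg development. Both are switched on as cells commit to retinal fate. Hth (Homothorax) is a TALE-class homeodomain protein that carries its partner Extradenticle into the nucleus, keeps anterior eye-disc cells in a proliferating progenitor state and is turned off as they differentiate. Yki, which the Hippo growth-control pathway keeps in check, is a transcriptional coactivator without a DNA-binding domain of its own. It reaches DNA through partners that include Sd, the TEAD-family DNA-binding protein of flies, and in eye progenitors Hth is known as another partner of Yki.

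All samples were eye discs of third-instar larvae, fixed with 2% formaldehyde for 30 minutes, and about 300 discs and 10 µg of antibody went into each immunoprecipitation. The Yki and Sd lists came from discs of the genotype GMR-Gal4; UAS-Drosophila Yki S168A, in which a form of Yki without a phosphorylation site used by the Hippo pathway is overexpressed. The Pol II list came from GMR-Gal4; UAS-Drosophila Yki-V5 discs, which overexpress tagged Yki. Every disc analysed therefore carried excess Yki and the labelled ectopic proliferation, and no disc without the transgenes was included. GMR-Gal4 acts in cells of the posterior, differentiating part of the eye disc, whereas chromatin came from whole discs, so each list pools cells with and without driver activity. In each comparison with Pol II, antibody and genotype cannot be told apart. Each antibody had 1 library, so no test between conditions was possible and all intervals below are 95% counting intervals that treat peaks as independent.

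Each peak has a deposited value, called the score here, which may be a −log10 q value and ranks peaks only within its own list. The median score was 21.6 over the Yki list, 6.83 over the Sd list and 30.2 over the Pol II list. Read depth behind the lists is unknown. Peaks are located by the windows and not assigned to transcripts, because the gene table used is on Release 6 of the genome. In the gene order of that table, the protein-coding neighbours were CG31637 and IFT52 for eya, Idgf3 and Nepl8 for dac, and Cyp12e1 and CG6465 for hth. A peak in a window may therefore belong to a neighbouring gene. The table also places the microRNA gene mir-4944 and the antisense RNA gene asRNA:CR44018 at hth.

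**Figure D1:**
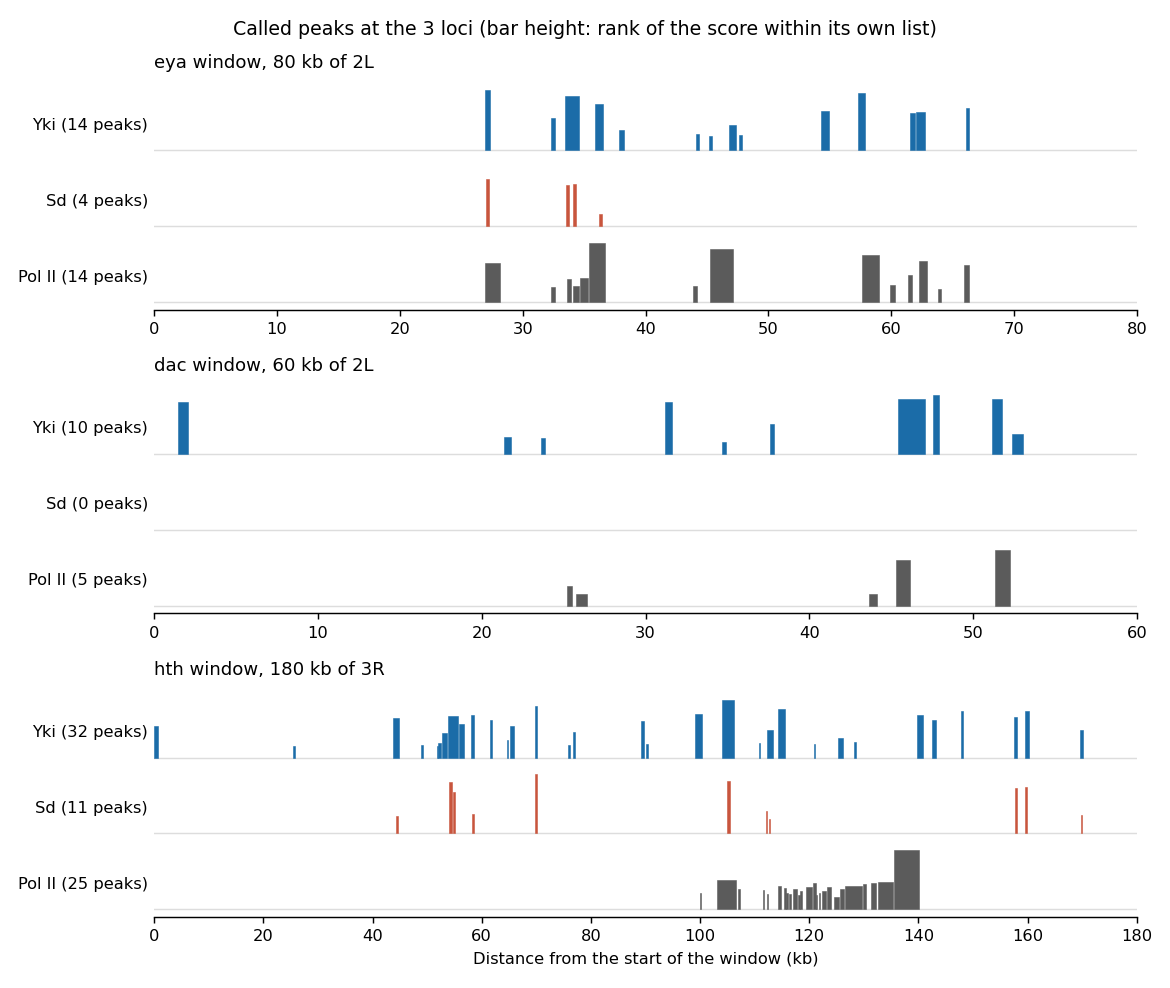
Maps of the eya, dac and hth windows, each drawn from its start (x axis, kb), with 1 row of peaks per antibody. Horizontal extent is to scale, and bar height runs from the lowest to the highest rank of the score within that peak's own list, so heights are not comparable between rows. Sd peaks lie on Pol II at eya, are missing at dac, and stand mostly to either side of a crowded Pol II tract at hth.

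Peaks were denser than on the rest of the arm at each locus for Yki, at eya and hth for Sd, and at eya and hth for Pol II. The eya window held 14 Yki peaks, or 175 per Mb (95.7 to 294, exact Poisson interval), against 89.8 per Mb on the rest of 2L, a ratio of 1.95. The dac window held 10, or 167 per Mb (79.9 to 307), against the same 89.8 per Mb, a ratio of 1.86, and its interval includes the arm's density. The hth window held 32, or 178 per Mb (122 to 251), against 94.3 per Mb on the rest of 3R, a ratio of 1.89. The 3 loci thus had nearly equal Yki density. By length covered, Yki peaks took up 8.44% of the eya window and 9.21% of the dac window, against 4.38% of the rest of 2L, and 12.6% of the hth window, against 4.64% of the rest of 3R.

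Sd density spanned a wider range of values over the loci, but on few peaks. It was 61.1 per Mb at hth (11 peaks, 30.5 to 109), against 20.03 per Mb on the rest of 3R, a ratio of 3.05. At eya it was 50.0 per Mb (4 peaks, 13.6 to 128), against 20.7 per Mb on the rest of 2L, a ratio of 2.41, and its interval includes the arm's density. The dac window held 0 Sd peaks (0 to 61.5 per Mb), where the density of the arm would place 1.24 in 60 kb, so the empty window is within counting error. The dac interval also includes the Sd densities of eya and hth, so these counts do not separate dac from them.

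Pol II density was 175 per Mb at eya (14 peaks, 95.7 to 294) and 83.3 per Mb at dac (5 peaks, 27.1 to 194), against 76.0 per Mb on the rest of 2L, with ratios of 2.30 and 1.10. At hth it was 139 per Mb (25 peaks, 89.9 to 205), against 84.1 per Mb on the rest of 3R, a ratio of 1.65. That excess at hth consisted of low-scoring peaks: with the upper 50% of the Pol II list by score, 1 peak remained in the window and the ratio was 0.135. By length covered, Pol II peaks took up 13.7% of the hth window, against 5.25% of the rest of 3R, a ratio of 2.61.

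Peaks cluster along a chromosome, so the intervals are narrower than the spread between regions. Each arm was therefore also divided end to end into tiles of the window's length. Of 287 tiles of 80 kb on 2L, 39 (13.6%) held at least as many Yki peaks as the eya window, 39 held at least as many Sd peaks, and 40 (13.9%) at least as many Pol II peaks. Of 382 tiles of 60 kb, 71 (18.6%) reached the Yki count of dac and 144 (37.7%) its Pol II count, while 161 had no Sd peak. Of 154 tiles of 180 kb on 3R, 8 (5.19%) reached the 32 Yki peaks of hth, 3 (1.95%) its 11 Sd peaks and 30 (19.5%) its 25 Pol II peaks. The dac and hth windows each coincide with 1 tile of their arm, so the counts given for dac and hth include the window itself. The Sd count at hth was 1 short of the highest tile of the arm, which held 12.

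**Figure D2:**
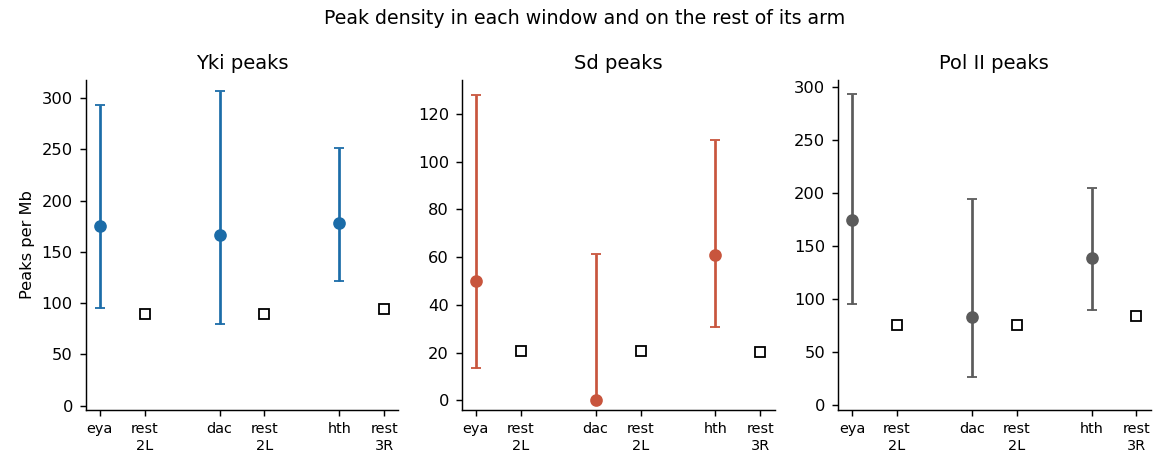
Peak density (peaks per Mb) of Yki, Sd and Pol II in each window (filled circle, with its exact 95% Poisson interval) and on the rest of the same arm (open square, outside all windows). The Yki circles lie between 167 and 178 per Mb in all 3 windows, while the Sd circles run from 0 at dac to 61.1 at hth. The Sd interval of dac reaches 61.5 and so includes the circles of eya and hth.

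At eya, Yki and Sd peaks kept to the part of the window that held Pol II peaks. By their centres, all 14 Yki peaks and all 4 Sd peaks fell between the start of the first and the end of the last Pol II peak, a span of 39.4 kb. The flanking 26.9 and 13.6 kb of the window held no peak centre, and the last Yki peak ended just past the last Pol II peak, at 6566372 against 6566366. Pol II overlapped 11 of the 14 Yki peaks (78.6%, exact Clopper-Pearson interval 49.2 to 95.3), against 53.2% of the 2049 Yki peaks on the rest of 2L, a share inside that interval. With peaks reduced to their central 200 bp, 5 of 14 overlapped (35.7%), against 29.0% on the rest of 2L. The 3 Yki peaks without Pol II, from 6537849 to 6538241, 6547581 to 6547820 and 6554304 to 6554909, were 1186, 450 and 2676 bp from one. No Yki peak at eya was farther away than that.

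Sd sat on 3 of the 14 Yki peaks at eya (21.4%, 4.66 to 50.8), close to the 20.8% on the rest of 2L. All 4 Sd peaks overlapped Pol II, where 40.2% of Sd peaks on the rest of 2L did, and with 4 peaks the interval reaches down to 39.8%. They fell within 9.45 kb of each other. The strongest Yki site of the locus, 420 bp from 6526955 to 6527374, had a score of 85.0 and ranked 133 in the Yki list. It held a 249 bp Sd peak from 6527022 to 6527270 with a score of 9.15, and both lay in a 1201 bp Pol II peak from 6526924 to 6528124 (score 39.9).

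The widest Yki peak of eya, 1137 bp from 6533484 to 6534620, was the third by score (45.9). It held Sd peaks from 6533545 to 6533748 (score 7.85) and from 6534092 to 6534342 (8.04) and met 2 Pol II peaks. The last shared site was a 654 bp Yki peak from 6535910 to 6536563 with a score of 32.7. Its Sd peak, from 6536203 to 6536466, was the widest at eya (264 bp) and, at 2.66, the lowest in score of the 15 Sd peaks at the 3 loci. It lay inside the strongest Pol II peak of the 3 loci, 1240 bp from 6535423 to 6536662, which had a score of 122 and ranked 341 of 10105. The weakest Sd call of the locus and its strongest Pol II call thus coincided.

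The other high-scoring peaks of eya had no Sd. The second Yki peak by score, 55.5, ran from 6557328 to 6557892 and met a Pol II peak from 6557586 to 6558977 (score 69.7), and the fifth, 27.2, ran from 6566085 to 6566372 on Pol II. A 1874 bp Pol II peak from 6545257 to 6547130, the widest of the locus and second by score (91.9), met 2 Yki peaks of low rank, from 6545188 to 6545425 (6.58) and from 6546783 to 6547329 (13.6). The fourth Pol II peak by score, from 6562237 to 6562908 (45.5), overlapped a Yki peak as well. In all, 11 of the 14 Pol II peaks had Yki (78.6%), against 64.4% on the rest of 2L, and 4 had Sd (28.6%, 8.39 to 58.1), against 10.6%. The 3 Pol II peaks without Yki had scores from 4.88 to 11.3, below the median of their list. Most such peaks of the arm were also low: on the rest of 2L, 113 of the 618 Pol II peaks without Yki were above that median.

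The dac locus had 10 Yki peaks and no Sd peak. Its Yki scores ran from 4.56 to 73.0, and 5 of 10 were in the upper 25% of the Yki list (18.7 to 81.3%). On the rest of 2L 529 of 2049 Yki peaks were, a share inside that interval. None of the 5 at dac had Sd (0 to 52.2), against 266 of the 529 Yki peaks of that rank on the rest of 2L (50.3%), again a share inside the interval. Over all 10 Yki peaks the interval, 0 to 30.8%, includes the 20.8% of the rest of the arm. The strongest, 372 bp from 16487575 to 16487946, ranked 281 in the Yki list. On the rest of 2L, 53 Yki peaks scored at least as high and 46 of them (86.8%) had Sd.

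The nearest Sd peaks were 40418 to 91405 bp away from the Yki peaks of dac. The window lies within a stretch of 210 kb without Sd, from 16323844 to 16533495, which ranked 18 by length among 477 such stretches on 2L. It held 26 Yki peaks, the third-highest number in a stretch of that kind on the arm, where the highest was 28. The stretches were examined after the window's count of 0 was seen.

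Pol II at dac overlapped 2 of the 10 Yki peaks (interval 2.52 to 55.6%), against 53.2% on the rest of 2L, a share inside the interval. With the central 200 bp of each peak, 0 of 10 overlapped, against 29.0%, and among peaks in the upper 50% of their lists 2 of 5 did, against 51.3%. The first was the widest Yki peak of the locus, 1612 bp from 16485447 to 16487058 with a score of 47.2, on a Pol II peak from 16485319 to 16486134 (60.8). The second, from 16491159 to 16491738 with a score of 46.9, lay on the strongest Pol II peak of the locus, 935 bp from 16491339 to 16492273 (104). The strongest Yki peak stood between these sites, 1440 bp from the nearest Pol II peak.

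The remaining Yki peaks of dac had no Pol II. Those from 16441433 to 16442090 (score 41.6) and from 16471204 to 16471631 (41.0) were 23109 and 4783 bp from it. The other 5 had scores from 4.56 to 16.4. The 3 Pol II peaks without Yki, from 16465200 to 16465531, 16465781 to 16466420 and 16483639 to 16484124, had scores of 7.67, 3.15 and 3.32, the last 2 near the limit of the list. Yki therefore accompanied the 2 Pol II peaks of dac that were above their list's median, and none of the others. The arm had the same tendency: on the rest of 2L, 764 of the 877 Pol II peaks above that median overlapped Yki. In all, 2 of the 5 Pol II peaks of dac had Yki (40.0%, 5.27 to 85.3). On the rest of 2L 64.4% did, a share inside that interval.

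**Figure D3:**
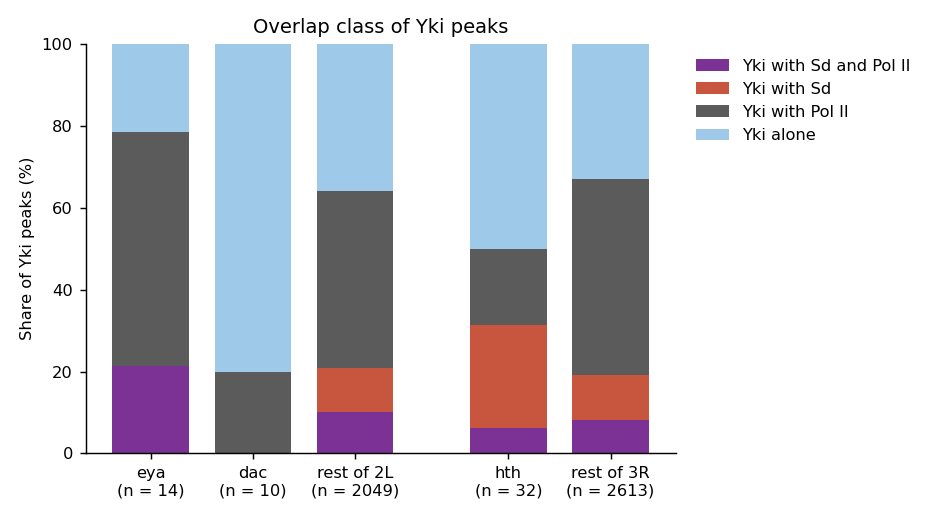
Share of Yki peaks (y axis, %) that overlapped both Sd and Pol II, Sd without Pol II, Pol II without Sd, or neither, at each locus and on the rest of its arm, with the number of Yki peaks under each bar. Yki with Sd but without Pol II makes up 25.0% of peaks at hth, against 11.0% on the rest of 3R, and 0 at eya and dac, against 10.8% on the rest of 2L. The values of 0 rest on 14 and 10 Yki peaks. For 0 of 10 the exact interval reaches 30.8%, above the share of the arm, and no difference was tested.

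At hth most Yki and Sd peaks lay away from Pol II. Pol II overlapped 8 of 32 Yki peaks (25.0%, 11.5 to 43.4), below the 55.9% of the rest of 3R, which lies outside that interval. Of the 32, 20 were more than 10 kb from Pol II (62.5%), against 15.2% of Yki peaks on the rest of the arm. The median gap was 23319.5 bp and the largest 74051 bp, against a median of 0 on the rest of 3R, where most Yki peaks overlap Pol II. With peaks reduced to their central 200 bp, 1 of 32 overlapped (3.13%), against 29.0% on the rest of 3R. That setting can drop overlaps of wide peaks. Of Yki peaks at hth, 25.0% exceeded 1 kb, against 6.16% on the rest of 3R. Among peaks in the upper 50% of their lists the share was 7.14%, against 53.0%. Only 1 Pol II peak of the window passed that limit, so the setting could give little but a low share.

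Most of these peaks lay in 2 blocks without Pol II, 1 on either side of the Pol II tract. Before the first Pol II peak the window ran for 99.9 kb, with 5 Sd peaks and 19 Yki peaks, counting the Yki peak that crosses the edge of the window and has its centre just outside it. After the last it ran for 39.9 kb, with 6 Yki peaks by their centres and 3 Sd peaks. Between them lay 40.2 kb with all 25 Pol II peaks, 7 Yki and 3 Sd peaks. Of the Yki peaks counted in each block, 1 reached into the tract and overlapped the Pol II peak at its edge. The first block continues beyond the window as a stretch without Pol II of 159 kb, from 6240616 to 6399909. That stretch ranked 13 by length among 2358 on 3R, where the median was 2.13 kb. It held 22 whole Yki peaks, second on the arm to a stretch with 23, and 10 whole Sd peaks, which no other stretch on 3R exceeded. These stretches were examined after the gaps were seen.

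**Figure D4:**
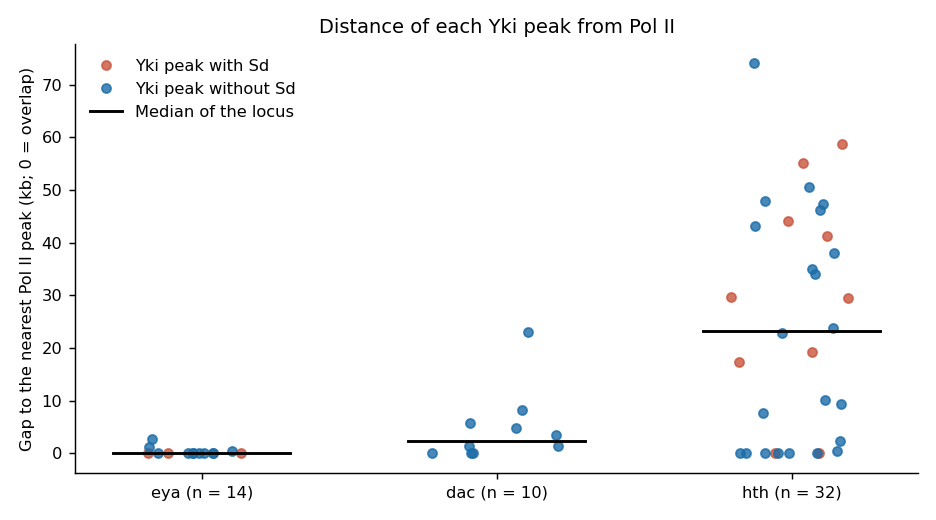
Gap from each Yki peak to the nearest Pol II peak (y axis, kb; 0 means overlap) at eya, dac and hth, coloured by overlap with Sd, with the median of each locus as a bar. All 14 peaks at eya lie below 3 kb, while 20 of 32 at hth lie above 10 kb, including 8 of the 10 with Sd. On the rest of 3R, 21.4% of Yki peaks with Sd lie above 10 kb.

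Sd overlapped 10 of the 32 Yki peaks at hth (31.2%, 16.1 to 50.0), against 19.1% on the rest of 3R, a share inside that interval. With peaks reduced to their central 200 bp, 7 of 32 overlapped (21.9%), against 15.8%. All 11 Sd peaks of the window were on Yki, as were all 4 at eya, against 95.5% of Sd peaks on the rest of 3R and 98.1% on the rest of 2L, so nearly every Sd peak of these arms lay on Yki. Of the 15 at the 2 loci, 13 lay wholly inside the Yki peak. The tenth Yki peak with Sd crosses the edge of the window, from 6299381 to 6300612, and its Sd peak, from 6299390 to 6299593, is outside. Of the 11 Sd peaks, 2 overlapped Pol II (18.2%, 2.28 to 51.8), against 35.0% on the rest of 3R, a share inside that interval. By distance, 8 of the 11 were more than 10 kb from Pol II (72.7%), against 23.1% of Sd peaks on the rest of 3R.

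The strongest Sd peak of the 3 loci was at hth, 332 bp from 6369816 to 6370147, with a score of 14.7 and rank 77 of 2557. It filled nearly the whole of a 361 bp Yki peak from 6369790 to 6370150, the second Yki peak of the locus by score (40.4), 29759 bp from Pol II. The widest Sd peak, 644 bp from 6353945 to 6354588 (score 10.0), shared a 1859 bp Yki peak from 6353878 to 6355736 (26.9) with another from 6354788 to 6355180 (7.81). This site was 44173 bp from Pol II. Between 6351734 and 6356785 this site stood in a row of 5 Yki peaks, of which the other 4 had no Sd and scores from 4.39 to 19.3. The row included the shortest step between Yki peak centres at hth, 449 bp. Its peaks were counted separately but may not be separate sites. Nearby sites were weaker in Sd, with scores of 3.84 from 6344353 to 6344645 on a 1114 bp Yki peak (24.7), and 4.25 from 6358267 to 6358517 on a 520 bp Yki peak (27.4).

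On the other side of the Pol II tract stood 3 further Sd sites. The Sd peak from 6457747 to 6458001 (8.72) lay on a Yki peak with a score of 25.7. The Sd peak from 6459460 to 6459802 (8.82) met the fifth Yki peak of the locus by score, from 6459464 to 6460251 (32.3). The Sd peak from 6469766 to 6469997 (4.08) lay on a Yki peak of 14.6. These 3 Yki peaks were between 17375 and 29429 bp from Pol II.

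Sd met Pol II at hth in the remaining region. The strongest Yki peak of the locus was also its widest, 2343 bp from 6403955 to 6406297, with a score of 60.9, and ranked 27 by width in the whole Yki list. It held a Sd peak from 6405016 to 6405435 (10.3) and lay within a 3478 bp Pol II peak from 6403185 to 6406662 whose score was 16.9. The second site was a 1131 bp Yki peak from 6412183 to 6413313 (15.1) with Sd peaks from 6412070 to 6412283 (4.63) and 6412639 to 6412842 (3.09). Only the first of that pair of Sd peaks touched the Pol II peak there, and the other was 142 bp from it.

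Yki peaks without Sd at hth included the third by score, 1307 bp from 6414257 to 6415563 (35.3), which met 2 Pol II peaks, and the fourth, from 6447805 to 6448234 (32.9), which was 7663 bp from Pol II. The 22 Yki peaks without Sd had a median score of 11.1, against 26.3 for the 10 with Sd. On the rest of 3R the medians were 19.0 without Sd and 41.0 with Sd, so both medians were lower at hth, a difference that was not tested. Over all 32 Yki peaks of hth, 43.8% were above the list median (26.4 to 62.3). On the rest of 3R 51.7% were, a share inside that interval. Yki peaks of hth were wide: 8 of 32 exceeded 1 kb (25.0%), against 6.16% on the rest of 3R.

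Pol II at hth formed a crowded tract of low scores with 1 strong peak at its end. Grouping Pol II peaks with gaps of at most 1 kb gave a run of 20 peaks over 25.9 kb, from 6414266 to 6440141, with 77.2% of its length covered. Among 1477 such runs on 3R none had more peaks or a greater span, and the median run was 1 peak. The run held 5 Yki peaks and 0 Sd peaks. Its grouping was chosen after the peaks were seen.

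The strongest Pol II peak of hth, 4701 bp from 6435441 to 6440141, closed this tract with a score of 120.2 and ranked 39 by width in the Pol II list. It overlapped a Yki peak at its end, from 6439758 to 6440898 (score 28.1). The next Pol II peaks by score, from 6403185 to 6406662 (16.9), 6432612 to 6435265 (14.0), 6431286 to 6432141 (12.8) and 6420647 to 6421187 (12.8), were all below the list median of 30.2. Over the window 1 of 25 Pol II peaks exceeded that median (4.00%, 0.101 to 20.4), against 48.8% on the rest of 3R. Yki overlapped 10 of the 25 (40.0%, 21.1 to 61.3), against 63.3% on the rest of 3R, and Sd 2 of 25 (8.00%), against 8.32%.

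**Figure D5:**
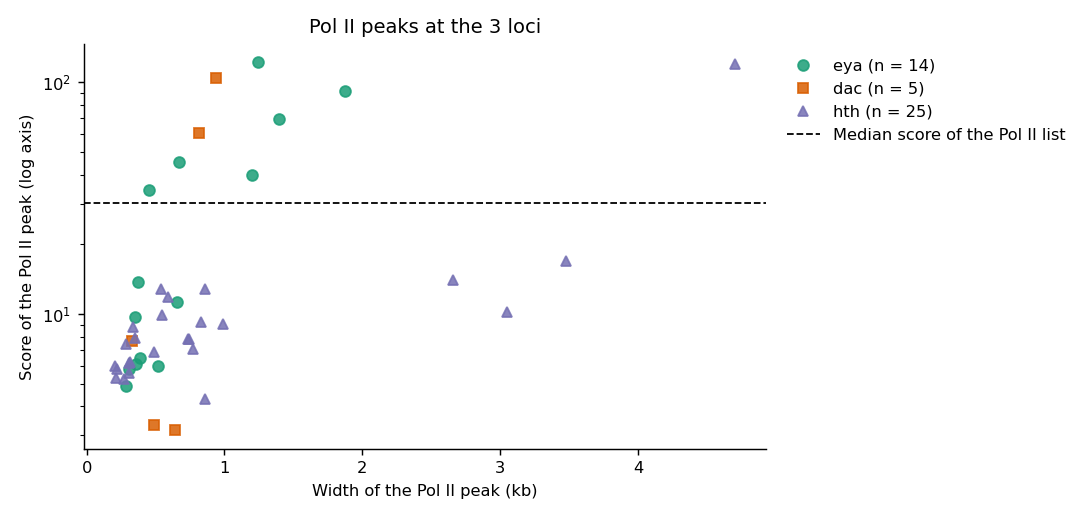
Score (y axis, log scale) against width (x axis, kb) of each Pol II peak at eya, dac and hth, with the median score of the whole Pol II list as a dashed line. At hth 1 of 25 peaks lies above the line, and at eya 6 of 14 and at dac 2 of 5 do.

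Yki scores above the median of the list were found for 8 of 14 peaks at eya (57.1%, 28.9 to 82.3) and 5 of 10 at dac (18.7 to 81.3%), against 49.1% on the rest of 2L. At hth 14 of 32 were above it (43.8%, 26.4 to 62.3), against 51.7% on the rest of 3R. The share of the arm lay inside each of these intervals. Sd and Yki centres were a median of 99.5 bp apart at hth (11 pairs, 6 to 571.5 bp) and 131.5 bp at eya (4 pairs), against 55.0 bp on the rest of 3R and 60.25 bp on the rest of 2L. The median width of Yki peaks was 567.5 bp at hth, against 401 bp on the rest of 3R, and its part in these distances was not tested. Differences between eya, dac and hth themselves were not tested, since each rests on a handful of peaks in 1 library per antibody.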

How the data were processed

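The deposited files were 3 peak lists, 1 per immunoprecipitation; the 2 input samples were not analysed here. Per the submitters' processing notes, the authors used CASAVA 1.8.2, Bowtie and MACS2 with build dm3; their other versions, settings, control library and read filters were not given in those sources. The deposited score of each peak is the authors' own value, and no header names its unit. Its minima (3.01 for Yki, 2.00 for Sd, 3.01 for Pol II) would suit a −log10 q value but do not establish it. The Sd list thus reached down to a lower score than the Yki and Pol II lists. Read depth, and so the depth behind each peak, is unknown.

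Peaks were written 1-based, and different lists overlapped if they shared at least 1 bp. The rest of an arm is everything outside the windows, up to the last peak end. Gaps are bases between peak edges. Intervals are exact Poisson or Clopper-Pearson intervals at 95%. Every Sd peak, and the 5 Yki and 5 Pol II peaks of highest score and the widest peak per list and locus, are named; others named were chosen after their values were seen. The windows, members and rules were chosen with earlier results of these data known. Computation used scipy 1.17.1 and numpy 2.4.6 for intervals, pandas 2.3.3 for tables and matplotlib 3.10.9 for plots, in Python 3.11.15, and overlap, gap and density code was tested on simulated data. The planned description of promoter and protein sequences was not run, because no sequence was used here. Alternatives covered score limit, window size, covered length, overlap rule, peak width and how gaps are measured.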

Additional observations from a re-analysis of the deposited data

How the results depend on the processing

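Of 69 values under alternatives, 62 stayed within the 95% interval of the value reported and 7 moved outside it. The 62 include the values for Sd at dac, which were 0 and could change only with the wider window. The Sd density ratios at dac, all 0, also count among the 36 named below. Covered length in place of peak number raised the hth density ratio to 2.72 for Yki and 2.61 for Pol II. The upper 50% of each list by score left 1 Pol II peak at hth, a density ratio of 0.135, and 7.14% of Yki peaks there on Pol II. Peaks reduced to their central 200 bp gave Pol II shares of Yki peaks of 35.7% at eya, 0% at dac and 3.13% at hth, against 29.0% on the rest of both arms. Of 39 density ratios under alternatives, 36 stayed on the same side of 1; the others were the one at hth just given and Pol II at dac, with 0.867 for the upper 50% and 0.790 with the window widened by 20 kb. A Sd score limit of 3, added after seeing the data, removed 1 Sd peak at eya and gave a Sd share of 14.3% there. No paired analysis was possible because only 1 library per antibody was used. Unknown depth limits every count: a Yki peak without Sd or Pol II is a site where none was called.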
